A study of Mus musculus with 6 samples.

Results

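The 10 Toll-like receptor genes Tlr1, Tlr2, Tlr3, Tlr4, Tlr6, Tlr7, Tlr8, Tlr9, Tlr11 and Tlr13 were followed through all 6 libraries of tumor dendritic cells (DC). They were picked by symbol from the 23224 genes of the table, and all 10 passed the filter on low counts that left 13223 genes for testing. The cells had been sorted 7 days after MC57-SIY, a mouse fibrosarcoma line carrying the model antigen SIY, was implanted under the skin of C57BL/6 mice. The 3 groups held 2 libraries each. They were CD103+ DC1 from Rag2-/- hosts, ISG+ DC from Rag2-/- hosts and ISG+ DC from WT hosts. All hosts carried the same tumor and received no further treatment that the labels name. Without Rag2, antigen receptor genes cannot be recombined, and mature T and B cells do not form. Tumors were pooled, and the labels speak of separate experiments, so n counts sorts from pooled tumors and not mice. No source used here gives the sort gate of ISG+ DC or the age and sex of the mice.

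Toll-like receptors are membrane proteins with a leucine-rich sensing part and a cytoplasmic TIR domain. TLR1, TLR2, TLR4 and TLR6 act mainly at the cell surface, where they recognise microbial lipids and lipoproteins. TLR3, TLR7, TLR8, TLR9, TLR11 and TLR13 act in endosomes, and most of them recognise nucleic acids there. All except TLR3 signal through MyD88, and TLR3 signals through TRIF. In mice, TLR3 and TLR11 are known from the cross-presenting DC1 lineage, and TLR7 is known to be low in it.

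Library totals lay between 6023510 and 15368616 estimated counts, with the lowest in CD103+ DC1 replicate 3. That library also stood apart, with Spearman correlations across genes of 0.858 to 0.902 to the rest. CD103+ DC1 replicate 2 correlated at 0.936 and 0.918 with the Rag2-/- ISG+ DC libraries and at 0.902 with its own replicate. Rag2 had 2 to 40 estimated counts in the libraries labelled Rag2-/- and 0 in both labelled WT, which goes against the order the host labels would give if DC used the gene. No source used here gives the part of the gene that the allele lacks, and host names are those of the labels throughout. The DC1 markers (10 genes) summed to 4797 to 8374 CPM in CD103+ DC1, against 1028 to 1127 in Rag2-/- ISG+ DC and 671 to 699 in WT ISG+ DC. Of these, 9 fell between the populations in Rag2-/- hosts, where 0.862% of all genes tested fell. The list holds Itgae, which encodes CD103, the marker that CD103+ DC1 are named for. Its values, 324 and 423 CPM against 0.692 and 7.00 in Rag2-/- ISG+ DC, are thus not independent of the sort. Of 9 markers tested of type 2 DC 7 rose, where 2.83% of all genes rose. The general DC markers (10 genes) summed to 14728 to 15777 CPM in CD103+ DC1, 18961 to 20348 in Rag2-/- ISG+ DC and 19573 to 20102 in WT ISG+ DC, most of it from the antigen presentation genes H2-Aa, H2-Ab1 and Cd74. Its members differed in order, with Flt3 and Zbtb46 lowest in WT ISG+ DC and Itgax lowest in CD103+ DC1. Flt3 was at 15.8 and 32.4 CPM there, against 145 and 91.3 in Rag2-/- ISG+ DC and 490 and 330 in CD103+ DC1. Zbtb46 was at 32.2 and 52.3 CPM, against 157 and 111 and against 260 and 267. Itgax was at 321 and 337 CPM, against 493 and 526 and against 165 and 159. Macrophage and monocyte markers (15 genes, none at 0 in any group) summed to 788 to 1050 CPM in CD103+ DC1, 3501 to 5373 in Rag2-/- ISG+ DC and 10507 to 10552 in WT ISG+ DC.

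The order of the Toll-like receptors differed from group to group. Levels of different genes were compared as CPM per kilobase, where CPM are counts scaled to library size with TMM factors and the length is the union of exons in GENCODE M21. In CD103+ DC1, Tlr3 led with 64.6 ± 1.63 CPM per kilobase (SD, n = 2). Tlr9 (34.2 ± 8.65), Tlr11 (19.4 ± 7.44) and Tlr13 (15.3 ± 7.63) came next, and the ranges of Tlr11 and Tlr13 overlapped. Every surface receptor stood below these, from Tlr1 at 6.23 ± 0.346 to Tlr6 at 1.55 ± 1.19, and Tlr7 and Tlr8 were last at 0.415 ± 0.587 and 0.346 ± 0.254. The ranges of Tlr2 and Tlr6, of Tlr6 and Tlr7 and of Tlr7 and Tlr8 overlapped.

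In Rag2-/- ISG+ DC, Tlr9 led with 60.6 ± 4.49 CPM per kilobase. Tlr13 (31.1 ± 3.95), Tlr2 (22.9 ± 3.84), Tlr1 (13.8 ± 2.80) and Tlr8 (9.57 ± 0.445) followed without overlap between neighbours. Tlr3 (6.56 ± 2.31), Tlr7 (6.14 ± 1.5), Tlr4 (5.16 ± 0.854) and Tlr6 (3.69 ± 1.34) overlapped from each to the next, and Tlr11 was last at 0.865 ± 1.22. WT ISG+ DC had Tlr13 (54.3 ± 11.1), Tlr9 (47.4 ± 9.93) and Tlr2 (37.6 ± 12.9) at the top, each overlapping the next. Tlr8 (27.5 ± 1.23), Tlr1 (19.1 ± 4.80), Tlr4 (11.8 ± 1.37) and Tlr7 (8.77 ± 2.92) followed without overlap between neighbours, and Tlr3 (3.65 ± 2.73), Tlr6 (3.20 ± 0.894) and Tlr11 (2.59 ± 1.38) were last, with overlapping ranges.

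Endosomal receptors held most of the summed level in every library, and a smaller share in ISG+ DC. On the per-kilobase scale their share was 93.3% and 90.6% in CD103+ DC1, 72.8% and 70.4% in Rag2-/- ISG+ DC and 70.5% and 63.8% in WT ISG+ DC. The groups of the 2 populations in Rag2-/- hosts did not overlap. Tlr3 alone made up 39.4% and 50.3% of the summed level in CD103+ DC1, 3.09% and 5.07% in Rag2-/- ISG+ DC and 0.880% and 2.36% in WT ISG+ DC. With Tlr3 left out of the sum, the endosomal share was 88.9% and 81.1% in CD103+ DC1 and 71.9% and 68.8% in Rag2-/- ISG+ DC. These shares are given as a description, since no test over chosen members was made, and no source used here gives the authors' gene models, which set the lengths behind their counts.

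**Figure D1:**
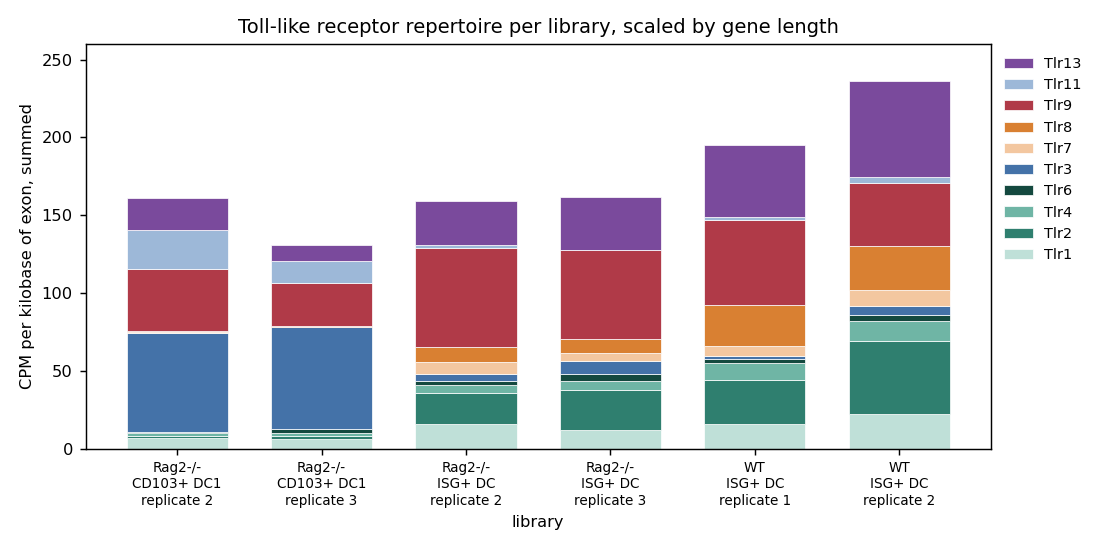
Stacked bars give the summed level of the 10 Toll-like receptors in each library in CPM per kilobase of exon, 1 colour per receptor. Tlr3 fills 39.4% and 50.3% of the CD103+ DC1 bars and at most 5.07% of the ISG+ DC bars, where Tlr9, Tlr13 and Tlr2 take most of the height.

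Within Rag2-/- hosts, the sorts set the receptors of ISG+ DC against those of CD103+ DC1. ISG+ DC had 14.1-fold more Tlr2 and 30.3-fold more Tlr8 and 9.86-fold less Tlr3. The other 7 receptors did not pass, so 2 of 10 rose and 1 fell by edgeR's quasi-likelihood test at an adjusted p of 0.05. Over all genes tested 3.69% passed, 2.83% higher and 0.862% lower. The CPM of the 2 groups did not overlap for any of the 10 receptors, 8 being higher and 2 lower in ISG+ DC, against 45.9% of all genes (23.9% higher and 22% lower). By class, 1 of 4 surface receptors rose and none fell, and of 6 endosomal receptors 1 rose and 1 fell.

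**Figure D2:**
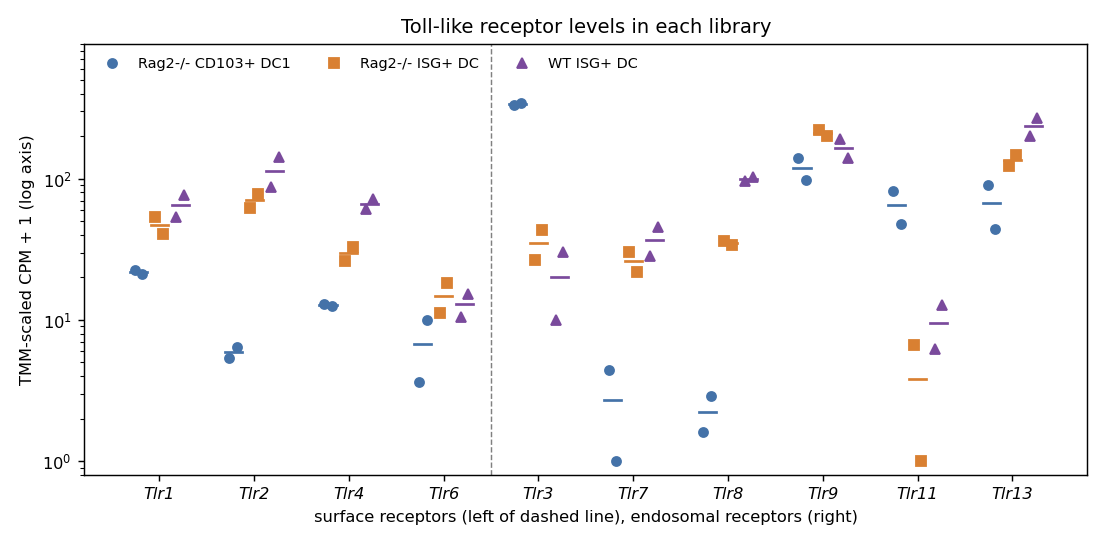
Each point is 1 library, plotted as TMM-scaled CPM plus 1 on a log axis, with a bar at each group's mean; surface receptors are left of the dashed line and endosomal ones right of it. Tlr3 and Tlr11 are highest in CD103+ DC1, and the other 8 receptors lie higher in Rag2-/- ISG+ DC than in CD103+ DC1.

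Among the surface receptors, Tlr2 showed the strongest difference. TLR2 recognises bacterial lipoproteins as a dimer with TLR1 or TLR6. Tlr2 was at 4.39 and 5.48 CPM in CD103+ DC1, 60.9 and 77.3 in Rag2-/- ISG+ DC and 85.8 and 141 in WT ISG+ DC. All 4 ISG+ DC libraries lay above both CD103+ DC1 libraries. Within Rag2-/- hosts the log2 fold change was 3.82 ± 0.44 (SE, edgeR adjusted p = 0.00124). It stayed between 3.63 and 4.17 and passed in all 12 alternative fits.

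Its partner Tlr1 was at 21.7 and 20.0 CPM in CD103+ DC1, 52.7 and 39.4 in Rag2-/- ISG+ DC and 52.5 and 75.2 in WT ISG+ DC. The difference between populations, 1.14 ± 0.42 on the log2 scale, did not pass (edgeR adjusted p = 0.221), although both ISG+ DC groups lay above CD103+ DC1. Tlr6, the other partner, was at 2.66 and 8.91 CPM in CD103+ DC1, 10.2 and 17.3 in Rag2-/- ISG+ DC and 9.56 and 14.3 in WT ISG+ DC. Its CD103+ DC1 libraries were far apart, and the log2 difference of 1.26 ± 0.95 did not pass (edgeR adjusted p = 0.618). It was 0.62 without CD103+ DC1 replicate 2 and 2.38 without replicate 3. Tlr1 and Tlr6 are neighbours on chromosome 5 and share sequence: of the distinct 50-base words in their GENCODE transcripts, 13.6% of those of Tlr1 and 12.3% of those of Tlr6 occur in the other gene. RSEM divides such reads by a model, so the split between these genes is uncertain.

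Tlr4, the receptor for lipopolysaccharide, was at 12 and 11.5 CPM in CD103+ DC1, 25.3 and 32.0 in Rag2-/- ISG+ DC and 60.2 and 71.0 in WT ISG+ DC. Each group lay above the one named before it. Between populations the log2 difference was 1.28 ± 0.45 and did not pass (edgeR adjusted p = 0.185). It passed when ISG+ DC of both hosts were set together against CD103+ DC1, at 1.88 (edgeR adjusted p = 0.0195).

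The endosomal receptors did not move as a class. Tlr3, the sensor of double-stranded RNA, was at 331 and 343 CPM in CD103+ DC1, 25.6 and 42.7 in Rag2-/- ISG+ DC and 8.94 and 29.0 in WT ISG+ DC. The CD103+ DC1 libraries were the highest by far, and the ISG+ DC libraries of the 2 hosts overlapped. Tlr3 fell by 3.30 ± 0.52 on the log2 scale in Rag2-/- ISG+ DC (edgeR adjusted p = 0.0053), and passed in all 12 alternative fits, at -3.73 to -2.98. In GENCODE the antisense gene Gm45542 overlaps exons of Tlr3, and no source used here gives the strand setting of the counting.

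Tlr11, which recognises the profilin of apicomplexan parasites in mice, also stood lower in ISG+ DC. It was at 80.9 and 46.4 CPM in CD103+ DC1, 5.67 and 0 in Rag2-/- ISG+ DC and 5.27 and 11.7 in WT ISG+ DC. A count of 0 in Rag2-/- ISG+ DC replicate 3 allows up to 0.219 CPM, from 3 counts, covering counting error only. The log2 difference of -4.48 ± 1.36 did not pass (edgeR adjusted p = 0.124). It passed in 8 of 12 alternative fits, 5 of them without 1 library. Without Rag2-/- ISG+ DC replicate 3, which holds the 0, it was -3.49 and did not pass (edgeR adjusted p = 0.0708). If replicate 2 is left out instead, the ISG+ DC group is at 0, and the fitted -12.47 is not a measured size.

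Tlr7 and Tlr8, sensors of single-stranded RNA and its breakdown products, lie next to each other on chromosome X and had the lowest mean levels per kilobase of the 10 receptors in CD103+ DC1. The sensing role of TLR8 is known mainly from human cells. Tlr8 was at 0.598 and 1.88 CPM in CD103+ DC1, 35.4 and 33.2 in Rag2-/- ISG+ DC and 95.4 and 102 in WT ISG+ DC. The CD103+ DC1 values rest on 9 and 11 estimated counts. Tlr8 rose by 4.92 ± 0.60 on the log2 scale (edgeR adjusted p = 0.00154), from 4.17 without CD103+ DC1 replicate 2 to 5.84 without replicate 3, and passed in all 12 alternative fits.

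Tlr7 was at 3.39 and 0 CPM in CD103+ DC1, 29.4 and 20.7 in Rag2-/- ISG+ DC and 27.3 and 44.2 in WT ISG+ DC. The 0 in CD103+ DC1 replicate 3 allows up to 0.514 CPM. With a log2 difference of 3.76 ± 1.11 Tlr7 did not pass (edgeR adjusted p = 0.115), but it passed in 8 of 12 alternative fits, DESeq2 among them. It was at 2.90 without CD103+ DC1 replicate 3. Without replicate 2 the group is left at 0, and the fitted 11.15 is not a measured size.

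Tlr9, the sensor of unmethylated CpG DNA, was high in all 3 groups. It was at 140 and 97.6 CPM in CD103+ DC1, 222 and 200 in Rag2-/- ISG+ DC and 189 and 140 in WT ISG+ DC. Rag2-/- ISG+ DC lay clear of CD103+ DC1, while WT ISG+ DC replicate 2 was level with CD103+ DC1 replicate 2. The log2 difference of 0.82 ± 0.30 did not pass (edgeR adjusted p = 0.204). It was 1.10 without CD103+ DC1 replicate 2 and 0.61 without replicate 3. Tlr13, a mouse sensor of bacterial ribosomal RNA that is also encoded on chromosome X, was at 89.2 and 42.8 CPM in CD103+ DC1, 122 and 146 in Rag2-/- ISG+ DC and 200 and 267 in WT ISG+ DC. The groups did not overlap, and the log2 difference between populations of 1.01 ± 0.37 did not pass (edgeR adjusted p = 0.207). It passed with ISG+ DC of both hosts together, at 1.41, and with no filter on low counts, at 1.01. Without CD103+ DC1 replicate 2 it was 1.64, and without replicate 3 it was 0.60.

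The differences of the surface receptors lay within the range of the endosomal ones. Of the endosomal receptors, Tlr7 at 3.76 lay inside the surface range. Tlr8 lay above it, and Tlr3, Tlr9, Tlr11 and Tlr13 lay below it. The median log2 fold change was 0.92 over the 6 endosomal receptors, which ran from -4.48 to 4.92, and 1.27 over the 4 surface receptors, which ran from 1.14 to 3.82. Over all genes tested it was -0.02. The endosomal less the surface median was -0.35, but 0.12 without CD103+ DC1 replicate 2 and -1.22 without replicate 3. The mean log2 CPM of the endosomal receptors less that of the surface receptors was 2.03 and 0.69 in CD103+ DC1, 0.41 and -0.66 in Rag2-/- ISG+ DC and 0.03 and 0.12 in WT ISG+ DC. Both CD103+ DC1 libraries lay above the ISG+ DC libraries, but libraries of 1 group were more than 1 unit apart in CD103+ DC1 and in Rag2-/- ISG+ DC. That order depends on the prior count of 2 added before the logarithm: at 0.5, CD103+ DC1 replicate 3 was at 0.36, below Rag2-/- ISG+ DC replicate 2 at 0.41.

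**Figure D3:**
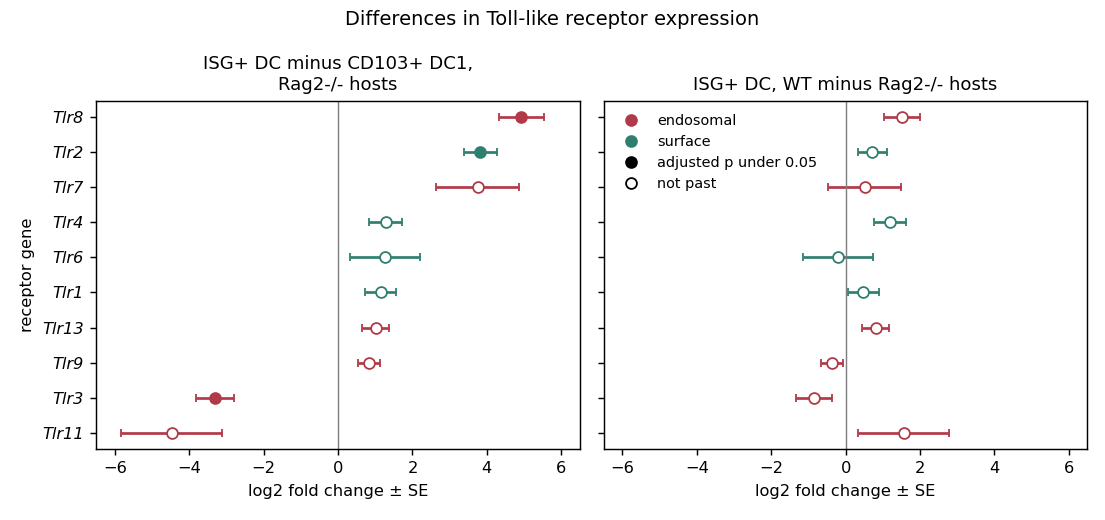
Points give the log2 fold change and bars its standard error for each receptor, with endosomal receptors in red and surface receptors in green; filled points passed at an adjusted p under 0.05. On the left, Tlr8, Tlr2 and Tlr3 passed, and endosomal receptors lie at both ends, from -4.48 to 4.92; on the right, no receptor passed.

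Markers of other cells were set beside these differences. Of the 15 macrophage and monocyte markers, 10 rose and none fell between populations, where 2.83% of all genes rose and 0.862% fell. Csf1r was at 32.8 and 40.9 CPM in CD103+ DC1 and 436 and 620 in Rag2-/- ISG+ DC. The part of these 15 markers in the rise of Tlr2 and Tlr8 was not tested. Fewer cells of a type and less RNA per cell cannot be told apart in bulk samples. Markers of plasmacytoid DC, a Tlr7- and Tlr9-rich cell type (10 genes), summed to 129 to 154 CPM in CD103+ DC1, 206 to 260 in Rag2-/- ISG+ DC and 183 to 195 in WT ISG+ DC, and none of the 6 tested passed between populations. Tcf4, Runx2 and Bst2 made up most of these sums. Tcf4 was at 37.1 and 34.8 CPM in CD103+ DC1 and 93.8 and 74.4 in Rag2-/- ISG+ DC, and Bst2 was at 44.6 and 25.0 against 73.6 and 65.1. Siglech, a defining marker of these cells, had at most 21.1 estimated counts in any library, and Klk1 was at 0 in all 6. The part of these markers in the values of Tlr7 and Tlr9 was not tested. Fibroblast and tumor markers (10 genes) summed to 488 to 1168 CPM in CD103+ DC1 and 680 to 1134 in Rag2-/- ISG+ DC. In WT ISG+ DC they summed to 59.5 to 470 CPM. Between hosts 8 of the 10 had a lower and 2 a higher estimate in WT, at a median of -2.11 on the log2 scale. None passed in either comparison of the main fit, and their part in the receptor values was not tested. B cell genes (8) summed to 0.171 to 8.44 CPM in CD103+ DC1, 2.55 to 4.91 in Rag2-/- ISG+ DC and 0 to 12.7 in WT ISG+ DC. The highest sum, in WT ISG+ DC replicate 1, came from Ebf1 at 8.22 and Cd79b at 4.47 CPM, while Ms4a1 and Blk were at 0 in all 6 libraries. Of 9 neutrophil markers in the table, S100a8, Ngp and Camp were at 0 in every group, and the list summed to 16.8 to 34.6 CPM in CD103+ DC1, 34.3 to 49.5 in Rag2-/- ISG+ DC and 148 to 166 in WT ISG+ DC.

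Upstream sequence is shown for Tlr8 and Tlr11, the endosomal receptors at the upper and lower end of the differences, whose windows hold no annotated exon. Each run is the 250 bases before the RefSeq start (GRCm38.p6), 5′ to 3′ on the gene's strand, with motif matches in capitals. The deposited counts were made on another build, mm9. Tlr8 lies on the minus strand at chrX:167264330-167264579 and Tlr11 on the plus strand at chr14:50357664-50357913.
Tlr8: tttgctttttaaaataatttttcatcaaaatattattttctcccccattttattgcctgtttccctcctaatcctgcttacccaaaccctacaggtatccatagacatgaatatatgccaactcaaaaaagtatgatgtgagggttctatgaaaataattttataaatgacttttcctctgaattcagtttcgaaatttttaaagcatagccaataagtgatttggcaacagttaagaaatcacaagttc
Tlr11: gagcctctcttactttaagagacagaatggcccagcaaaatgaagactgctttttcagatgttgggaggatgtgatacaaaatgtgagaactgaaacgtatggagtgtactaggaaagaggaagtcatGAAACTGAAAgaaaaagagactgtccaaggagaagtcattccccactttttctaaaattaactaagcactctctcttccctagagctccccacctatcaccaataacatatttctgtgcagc
Searched on both strands were an ISRE-like motif (GAAA, any 2 bases, GAAA), an ETS-IRF composite-like motif (GGAA, any 2 bases, GAAA), an NF-kB-like motif (GGGA, any base, TTTCC) and an AP-1-like motif (TGANTCA). The first pair can overlap in their last GAAA. These stand for interferon response elements, sites shared by ETS and IRF factors, and sites of NF-kB and AP-1. The capitals in Tlr11 are an ISRE-like match that ends 113 bases before the start. None of the 4 motifs occurred in the Tlr8 window. An ISRE-like match is found in 2.98% of the 32851 upstream windows of this size, an ETS-IRF composite-like match in 2.30%, an NF-kB-like match in 0.356% and an AP-1-like match in 6.75%.

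RefSeq windows were found for 8 of the 10 receptors, 10 windows in all, and not for Tlr4 and Tlr7. Of the other 6 receptors, Tlr3 had 1 NF-kB-like match, Tlr9 had 1 AP-1-like match and Tlr6 had 2 ISRE-like matches in 1 of its 2 windows, 6 bases apart and overlapping. Tlr1, Tlr2 and Tlr13 had none of the 4 motifs. The windows of Tlr1, Tlr2, Tlr3, Tlr13 and 1 of Tlr6 overlap annotated exons. A match describes letters and not a bound site.

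The genes most like Tlr8 and Tlr3 across the 6 libraries were found by the root mean square difference of centred log2 CPM, among 8563 genes averaging 10 CPM or more. Among the nearest to Tlr8 were Mefv, which encodes pyrin, at 0.467 log2 units, and LOC100038947 at 0.545. Mefv was at 1.2 and 8.39 CPM in CD103+ DC1, 78.2 and 102 in Rag2-/- ISG+ DC and 178 and 175 in WT ISG+ DC. Nearest to Tlr3 were Cd24a, a surface glycoprotein gene, at 0.555, Ly75, which encodes the endocytic receptor DEC-205, at 0.613, and Bcl2l14 at 0.666. Ly75 was at 250 and 214 CPM in CD103+ DC1, 40.5 and 32.0 in Rag2-/- ISG+ DC and 12.7 and 54.8 in WT ISG+ DC.

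The remaining mouse receptors in the table, Tlr5 and Tlr12, are no members of the list above. Tlr5, the receptor for flagellin at the surface, was at 0 in both CD103+ DC1 libraries, 3.59 and 23.2 CPM in Rag2-/- ISG+ DC and 34.9 and 17.6 in WT ISG+ DC. It was at least 93.2-fold higher in Rag2-/- ISG+ DC, from the group mean against a limit of 3 counts over the CD103+ DC1 group (edgeR adjusted p = 0.0143, and 0.0698 in a fit of the 4 libraries alone). That bound was 25.0-fold without Rag2-/- ISG+ DC replicate 3, 161-fold without Rag2-/- ISG+ DC replicate 2 and 26.1-fold without CD103+ DC1 replicate 2. Tlr12, an endosomal relative of Tlr11, was at 4.12 and 1.2 CPM in CD103+ DC1, 3.21 and 1.68 in Rag2-/- ISG+ DC and 8.49 and 0 in WT ISG+ DC, with overlapping groups (edgeR adjusted p = 0.994).

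Other genes of Toll-like receptor signalling were read in 7 lists. Of their 103 genes tested, 17 rose and 3 fell between populations, where 2.83% of all genes rose and 0.862% fell, and their median log2 fold change was 0.45 against -0.02 over all genes. The shared adaptors and the trafficking chaperone did not pass between populations. Unc93b1, the chaperone that carries receptors to endosomes, was at 468 and 378 CPM in CD103+ DC1, 534 and 555 in Rag2-/- ISG+ DC and 717 and 719 in WT ISG+ DC. Its log2 difference between populations was 0.36 ± 0.23 (edgeR adjusted p = 0.515). Myd88 was at 161 and 155 CPM in CD103+ DC1 and 218 and 190 in Rag2-/- ISG+ DC, a log2 difference of 0.37 ± 0.26 (edgeR adjusted p = 0.569). Ticam1, which encodes TRIF, was at 38.6 and 30.1 against 35.6 and 19.3 CPM, a log2 difference of -0.32 ± 0.52 (edgeR adjusted p = 0.863). None of the 7 adaptor genes passed, and 4 had a higher and 3 a lower estimate, with a median log2 fold change of 0.24. Single adaptors lay far from that median in both directions. Ticam2 was at 2.86 and 5.31 CPM in CD103+ DC1 and 26.5 and 24.8 in Rag2-/- ISG+ DC. Sarm1 averaged 4.26 CPM in CD103+ DC1 and had no counts in Rag2-/- ISG+ DC. In each of 6 alternative fits 1 adaptor passed as higher: by DESeq2, with no filter on low counts, with ISG+ DC of both hosts together, and without CD103+ DC1 replicate 2, CD103+ DC1 replicate 3 or WT ISG+ DC replicate 1.

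Of 9 coreceptors tested 3 rose and none fell, where 2.83% of all genes rose and 0.862% fell. Their median log2 fold change was 0.94, against -0.02 over all genes. Of the 9, 5 had a higher and 4 a lower estimate, down to -3.82. By DESeq2, with no filter on low counts and with ISG+ DC of both hosts together, 1 passed as lower. Cd14, which hands lipopolysaccharide to TLR4, was at 4.26 and 11 CPM in CD103+ DC1, 62.1 and 105 in Rag2-/- ISG+ DC and 258 and 340 in WT ISG+ DC. It rose 11.3-fold between populations (edgeR adjusted p = 0.00257), or by 4.31 on the log2 scale without CD103+ DC1 replicate 3 in place of 3.5. Itgam, which encodes CD11b, rose 15.9-fold and Clec7a, the beta-glucan receptor that acts with TLR2, rose 5.84-fold, or by 3.47 in place of 2.54 on the log2 scale without CD103+ DC1 replicate 3. Ly96, the MD-2 subunit that TLR4 needs to bind lipopolysaccharide, was too low to be tested. Its estimated counts were 0 in both CD103+ DC1 libraries, 10 and 55 in Rag2-/- ISG+ DC and 1 and 2 in WT ISG+ DC. Without single libraries, the median of the coreceptors ran from 0.78 to 1.32, and the number that passed varied.

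In the list of trafficking and processing, 4 of 19 rose and 1 fell, at a median log2 fold change of 0.37. Ctss, Lgmn and Ctsb, lysosomal proteases that can cleave endosomal receptors, rose 4.02-fold, 3.23-fold and 2.82-fold (edgeR adjusted p = 0.00079, 0.00515 and 0.0136). Ctsb did not pass when Rag2-/- ISG+ DC replicate 3 was left out, at 1.17 on the log2 scale. Slc15a4, an endolysosomal transporter needed for signalling by TLR7 and TLR9, rose 3.61-fold (edgeR adjusted p = 0.0425), and did not pass without either Rag2-/- ISG+ DC replicate, at 1.51 and 2.13. The gene that fell, Hsp90b1, encodes the chaperone gp96 that folds Toll-like receptors, and was at 1851 and 2875 CPM in CD103+ DC1 and 1063 and 1121 in Rag2-/- ISG+ DC (edgeR adjusted p = 0.0331). It too did not pass without either Rag2-/- ISG+ DC replicate, at -1.07 and -1.15. The list's median was 0.52 without CD103+ DC1 replicate 2, and 0.39 and 0.53 without Rag2-/- ISG+ DC replicate 2 or 3. How many of the list passed depended on the library left out.

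Of 21 kinases and ligases only Ikbke passed, at a list median of 0.24. Ikbke, a kinase of interferon regulatory factors, was at 2.06 and 0 CPM in CD103+ DC1, 36.0 and 60.3 in Rag2-/- ISG+ DC and 124 and 170 in WT ISG+ DC. It rose 38.6-fold (edgeR adjusted p = 0.00557), or by 4.56 on the log2 scale without CD103+ DC1 replicate 3 in place of 5.27. Without CD103+ DC1 replicate 2, the CD103+ DC1 group is at 0 for Ikbke, and the list median was 0.26. Among 13 transcription factors 1 rose and 1 fell, at a median of 0.54. Jun rose 4.06-fold and Irf8, on which DC1 depend, fell by 2.93 (log2), or by 2.21 without CD103+ DC1 replicate 2. Irf7, which drives interferon genes after TLR7 and TLR9 signals, was at 688 and 515 CPM in CD103+ DC1 and 935 and 817 in Rag2-/- ISG+ DC (edgeR adjusted p = 0.315). Irf5, which acts downstream of MyD88, was at 568 and 399 against 394 and 435 CPM (edgeR adjusted p = 0.782).

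Of 15 negative regulators 5 rose and none fell, against 2.83% and 0.862% of all genes, and their median log2 fold change was 0.94. Irak3, a kinase-like brake on MyD88 signals, was at 1.73 and 1.88 CPM in CD103+ DC1 and 29.5 and 34.5 in Rag2-/- ISG+ DC, and rose 17.7-fold (edgeR adjusted p = 0.00172). Nfkbiz, an IkappaB family member, rose 5.91-fold, and Dusp1, a phosphatase of MAP kinases, rose 2.73-fold. Dusp1 did not pass when Rag2-/- ISG+ DC replicate 3 was left out, at 1.26 on the log2 scale. Tnip1 and Nfkbia, which restrain NF-kB, rose 2.45-fold and 2.25-fold (edgeR adjusted p = 0.038 and 0.0486). Neither passed without either Rag2-/- ISG+ DC replicate or without WT ISG+ DC replicate 1, nor Nfkbia without WT ISG+ DC replicate 2, at 1.03 to 1.45 on the log2 scale. The list's median was 1.45 without CD103+ DC1 replicate 2 and 0.94 without WT ISG+ DC replicate 1. It was 1.11 and 1.03 without Rag2-/- ISG+ DC replicate 2 or 3. The number that passed also depended on the library left out.

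Target genes went in both directions, with 3 of 19 higher, 1 lower and a median log2 fold change of 1.18. Cxcl10 rose 15.1-fold, from 12.6 and 3.08 CPM to 139 and 105, a log2 change of 3.91 that was 5.29 without CD103+ DC1 replicate 2 and 3.30 without replicate 3. Cxcl2 had no counts in CD103+ DC1 and was 5.16 and 14.8 CPM in Rag2-/- ISG+ DC, at least 69.5-fold more than 3 counts over the group allow. That bound was 35.9-fold without Rag2-/- ISG+ DC replicate 3 and 19.4-fold without CD103+ DC1 replicate 2. Il1b rose 3.48-fold and did not pass when Rag2-/- ISG+ DC replicate 3 was left out, at 1.47 on the log2 scale. Cxcl9, the target gene that fell, was at 89.6 and 184 CPM in CD103+ DC1 and 23.3 and 34.3 in Rag2-/- ISG+ DC. Its log2 change of -2.25 did not pass when Rag2-/- ISG+ DC replicate 2 was left out, at -1.99, and was -1.62 without CD103+ DC1 replicate 3. Without single libraries, the target genes that passed numbered from 3 to 9.

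**Figure D4:**
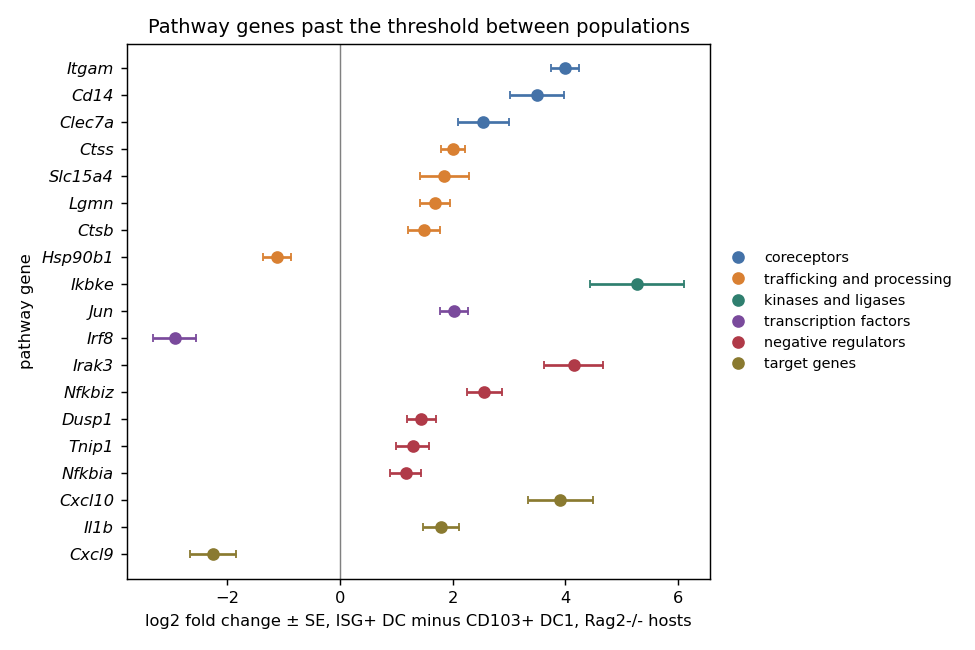
Points give the log2 fold change between ISG+ DC and CD103+ DC1 of Rag2-/- hosts, with standard errors, for the 19 pathway genes that passed other than Cxcl2, whose CD103+ DC1 level was 0; colours give the list. Hsp90b1, Irf8 and Cxcl9 lie below 0 and the other 16 above it.

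The second comparison asked how the receptors differ between ISG+ DC of WT and of Rag2-/- hosts. No Toll-like receptor passed by edgeR's quasi-likelihood test, where 0.552% of all genes did (0.287% higher and 0.265% lower). At an unadjusted p under 0.05 there were 2 of 10, Tlr8 and Tlr4, where 9.88% of all genes lay under it, and DESeq2 called none. Of the 10 receptors, 7 had a higher estimate in WT hosts and 3 a lower one, and the median log2 difference was 0.61 (0.66 over the endosomal and 0.59 over the surface receptors), against -0.03 over all genes. The groups did not overlap for 5 receptors, with Tlr2, Tlr4, Tlr8 and Tlr13 higher and Tlr9 lower in WT hosts, against 44.5% of all genes (21.4% higher and 23.1% lower).

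Tlr8 had the smallest p, at 95.4 and 102 CPM in WT ISG+ DC and 35.4 and 33.2 in Rag2-/- ISG+ DC. Both pairs were tight, and the log2 difference was 1.52 ± 0.49 (edgeR adjusted p = 0.261). It passed in 3 of 10 alternative fits: in the 4 libraries of the comparison alone, and without either CD103+ DC1 replicate. Tlr4 differed by 1.19 ± 0.44 on the log2 scale and passed in none of the 10 (edgeR adjusted p = 0.356). Tlr13 differed by 0.80 ± 0.37 and Tlr2 by 0.71 ± 0.39 (edgeR adjusted p = 0.512 and 0.631), and Tlr13 passed without CD103+ DC1 replicate 3, at 0.80. Without WT ISG+ DC replicate 2, Tlr2 differed by 0.31.

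Tlr3 was at 8.94 and 29.0 CPM in WT and 25.6 and 42.7 in Rag2-/- ISG+ DC, with overlapping groups and a log2 difference of -0.85 ± 0.48 (edgeR adjusted p = 0.647). It was -0.23 without WT ISG+ DC replicate 1 and -1.94 without replicate 2. Tlr9 differed by -0.35 ± 0.30 (edgeR adjusted p = 0.807) although its groups did not overlap, and by -0.59 and -0.16 without WT ISG+ DC replicate 1 or 2. Tlr1 (0.47 ± 0.42), Tlr6 (-0.21 ± 0.93), Tlr7 (0.51 ± 0.98) and Tlr11 (1.57 ± 1.23) had overlapping groups. Without WT ISG+ DC replicate 2, Tlr1 was at 0.18 and Tlr7 at 0.12, and without replicate 1 at 0.70 and 0.82. Tlr11 was at 0.58 without Rag2-/- ISG+ DC replicate 3. It passed without Rag2-/- ISG+ DC replicate 2, where that group is left at 0.

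Of 103 genes tested in the 7 lists, 4 passed between hosts, all higher in WT, against 0.287% higher and 0.265% lower over all genes. They were Nos2, the inducible nitric oxide synthase, Cxcl9, the AP-1 subunit Fos and the protease Ctsl. Nos2 was at 225 and 481 CPM in WT and 0.881 and 2.99 in Rag2-/- ISG+ DC (edgeR adjusted p = 0.00557), a log2 difference of 7.52, or 8.63 without Rag2-/- ISG+ DC replicate 3, 6.88 without replicate 2 and 6.86 without WT ISG+ DC replicate 2. Cxcl9 rose 8.10-fold, Fos 3.63-fold and Ctsl 5.13-fold. All except Nos2 lost their calls without Rag2-/- ISG+ DC replicate 2, at log2 differences of 2.76, 1.67 and 2.39, and Ctsl also without replicate 3, at 2.33. Between hosts 1 of 9 coreceptors had a lower and 8 a higher estimate in WT, and none passed. Cd14 differed by 1.84 ± 0.44 on the log2 scale (edgeR adjusted p = 0.1). Unc93b1, at 717 and 719 against 534 and 555 CPM, differed by 0.40 ± 0.23 (edgeR adjusted p = 0.645), and Irf7, at 415 and 450 against 935 and 817 CPM, by -1.02 ± 0.24 (edgeR adjusted p = 0.0979).

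Macrophage and monocyte markers summed to 10507 to 10552 CPM in WT against 3501 to 5373 in Rag2-/- ISG+ DC, with Lyz2, Apoe, Csf1r and Mrc1 the most abundant in WT. Of the 15 genes 1 passed, as higher in WT (none without Rag2-/- ISG+ DC replicate 2, and 10 without either CD103+ DC1 replicate). Over all genes tested 0.287% passed as higher. The estimate was higher in WT for 10 of the 15 and lower for 5. The groups did not overlap for 10 higher and 3 lower, against 21.4% higher and 23.1% lower of all genes. Among the lower ones, Ly6c2 was at 12.5 and 11.2 CPM in WT and 38.0 and 28.7 in Rag2-/- ISG+ DC, and Fcgr1 was at 299 and 320 against 354 and 419. Their part in the receptor differences was not tested. The comparisons share the Rag2-/- ISG+ DC libraries, so their values for a receptor are not independent.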

How the data were processed

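The authors deposited RSEM estimated counts per gene symbol, 1 column per library, not normalized. Per the submitters' processing notes, Bowtie 1.2.3, RSEM 1.3.1 and the mm9 genome were used. Per the labels' protocols, libraries came from a stranded low-input total RNA kit. No source used here gives the annotation or the strand setting. RSEM divides reads that fit several genes.

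Values were rounded and fitted over all 6 libraries in R 4.3.3 with edgeR 4.0.16. The filter was filterByExpr and scaling was by TMM. Tests were quasi-likelihood, two-sided, with Benjamini-Hochberg adjustment over 13223 genes and a threshold of 0.05. There were 3 residual degrees of freedom, and the common coefficient of variation was 0.703. Standard errors come from the F statistic. Log2 CPM used a prior count of 2, and CPM values are given per library or as mean ± SD. P-values rest on the spread between these libraries, which the fit draws toward a trend over all genes with 7.34 prior degrees of freedom. Limits from 3 counts cover counting error only. Tested on simulated counts, the procedure recovered 35% of 4-fold and 100% of 16-fold changes between populations (13366 genes). Between hosts it recovered 51% and 100% (13404 genes). Of the calls made there, 6.90% were false between populations and 3.82% between hosts. The simulation gave all genes a coefficient of variation below the 0.703 of the data, and changed only genes averaging 10 CPM or more. Its shares therefore do not give the recovery or the false calls at the spread of these data. Recovery at the levels and the spread of the receptors themselves was not tested. DESeq2 1.42.0 was an alternative.

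The receptors and lists were chosen with earlier results of these data known. Of 223 list entries 220 were found. The rule for naming took all receptors, up to 3 members per list with the smallest p among those that passed in each comparison, and 7 set genes; other list members were named after their values were seen. Some items that the rule names are not reported here.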

Additional observations from a re-analysis of the deposited data

How the results depend on the processing

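Alternatives were DESeq2 size factors, the DESeq2 Wald test, no count filter, the 4 libraries of a comparison alone, ISG+ DC of both hosts together against CD103+ DC1, a replicate block, and each library left out. Tlr2, Tlr8 and Tlr3 kept direction and call between populations in all 12. Causes of the shifts below were not tested.

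Between populations, the 488 genes past the threshold became 1078 with the DESeq2 Wald test, 1087 with no filter, 297 with the 4 libraries alone and 1157 with both hosts together, and 278 to 2068 without 1 library. The Toll-like receptors, 3 of 10, became 6 with no filter and 7 with both hosts together, and 3 to 7 without 1 library. The pathway genes, 20, became 33 with no filter, 12 with the 4 libraries alone, 33 with both hosts together, and 13 to 45 without 1 library. The endosomal less surface median ran from -1.22 to 0.12 without 1 library.

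Between hosts, the 73 genes became 545 with the DESeq2 Wald test, 555 with no filter and 444 with the 4 libraries alone, and 27 to 801 without 1 library. The receptors, 0 of 10, became 1 with the 4 libraries alone and 0 to 2 without 1 library. The pathway genes, 4, became 19, 21 and 20 in the same 3 fits, and 1 to 24 without 1 library. The endosomal less surface median, 0.07, ran from -0.15 to 0.11.

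The log2 difference of Tlr12 between populations, -0.13, turned to 0.27 with both hosts together and ran from -0.73 to 1.02 without 1 library. Between hosts Tlr12 ran from -7.89 to 1.79 and Tlr6 from -0.54 to 0.22. None of these passed.

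Replicate numbers 2 and 3 occur in both Rag2-/- groups, but the labels do not say that they pair samples, and deviations of same-numbered libraries from their group means correlated at 0.0162. With the replicate block, 659 genes and 5 Toll-like receptors passed, Tlr7 and Tlr11 being added, and the log2 difference of Tlr12 was 0.050. Between hosts no paired analysis was possible because WT and Rag2-/- ISG+ DC share only the number 2.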
